A study of Homo sapiens with 12 samples.

Results

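Transcripts of 7 genes known to be driven by HERVH in pluripotent cells were followed through the 12 RNA-seq libraries of the series: ESRG, LINC-ROR, LINC00458, LINC01108, HHLA1, ABHD12B and SCGB3A2. They were chosen by name and not by a rule on their values, although earlier results of these data were known. All 7 of 7 were found among the 26641 genes of the deposited count table. The libraries came from NCCIT, a human embryonal carcinoma line. In it LTR5HS, a subclass of the long terminal repeats of the HERVK family, was activated or repressed with CARGO arrays of 12 guide RNAs. A doxycycline-inducible Streptococcus pyogenes dCas9 was fused either to the activation domain VPR (CRISPRa) or to the repression domain KRAB (CRISPRi). Each fusion was combined with 3 arrays. LTR5HS Sp carries LTR5HS guides in the scaffold that the dCas9 binds and is called recruitment. The study reports that this array also brought dCas9 to part of the related LTR5A and LTR5B copies and to off-target sites. LTR5HS Sa carries LTR5HS guides in a Staphylococcus aureus scaffold, and nontarget Sp carries guides without a human target. These last arrays are together called control. Every line, control included, carried its fusion and its array on selected PiggyBac transgenes and was treated with doxycycline for 4 days. Each of the 6 lines gave 2 replicate libraries, so each fusion had 2 recruitment and 4 control libraries. The 3 array lines of a fusion were derived from 1 progenitor line, so the effect of a fusion cannot be told apart from that of its progenitor. Within a fusion each array was 1 line, so the effect of an array and that of its line cannot be told apart. The study's methods describe the replicates of a line as independent biological samples.

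HERVH is a family of endogenous retroviruses that is separate from HERVK, and its long terminal repeat is LTR7, not LTR5HS. In human pluripotent cells LTR7 serves as a promoter for noncoding RNAs and for chimeric transcripts of neighbouring genes, and pluripotency factors such as OCT4 (POU5F1), NANOG and KLF4 bind it. ESRG and LINC-ROR are long noncoding RNAs known as markers of human pluripotent cells, and LINC00458 and LINC01108 are long noncoding RNAs as well. HHLA1 is a gene named for its association with the HERV-H LTR. ABHD12B belongs to the alpha/beta hydrolase domain family, and SCGB3A2 encodes a secretoglobin that is otherwise known from airway epithelium. The guides were designed against LTR5HS, and the comparisons below describe how these HERVH-associated transcripts behaved when another retroviral family was perturbed.

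The libraries held between 13601701 and 69797411 counts, with dCas9-KRAB nontarget Sp replicate 2 as the deepest. Levels are given as CPM, counts relative to library size, where sizes were normalised by TMM so that the bulk of genes is comparable. Depending on the library, 3 counts were worth 0.0455 to 0.233 CPM, a limit that covers counting error only. Every member had at least 2 counts in every library. ESRG was counted from 76 to 73586 times, whereas LINC00458 never exceeded 13 counts in a dCas9-VPR library. Without the deepest library, 0 members were called in CRISPRi and 7 between the fusions' control lines, as with it.

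Per kb of the deposited gene length, ESRG was the most abundant member in the dCas9-KRAB control lines, at 317 ± 71.5 CPM per kb (SD, n = 4). LINC01108 followed at 81.3 ± 29.5 and SCGB3A2 at 62.2 ± 7.22 CPM per kb, and the ranges of this pair overlapped. HHLA1 was at 37.5 ± 9.70 CPM per kb and LINC-ROR at 13.9 ± 6.25, each without overlap with its neighbours in the order. ABHD12B at 1.62 ± 0.501 and LINC00458 at 1.03 ± 0.518 CPM per kb were lowest and overlapped. In the dCas9-VPR control lines the order was different. SCGB3A2 led at 28.2 ± 9.81 CPM per kb and overlapped with ESRG at 18.6 ± 5.82, and LINC01108 was at 3.39 ± 0.970 CPM per kb. The other 4 members lay between 0.283 and 0.628 CPM per kb on average and overlapped one with the next. Gene length follows the authors' annotation, and the level per kb of a gene with several isoforms depends on it.

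**Figure D1:**
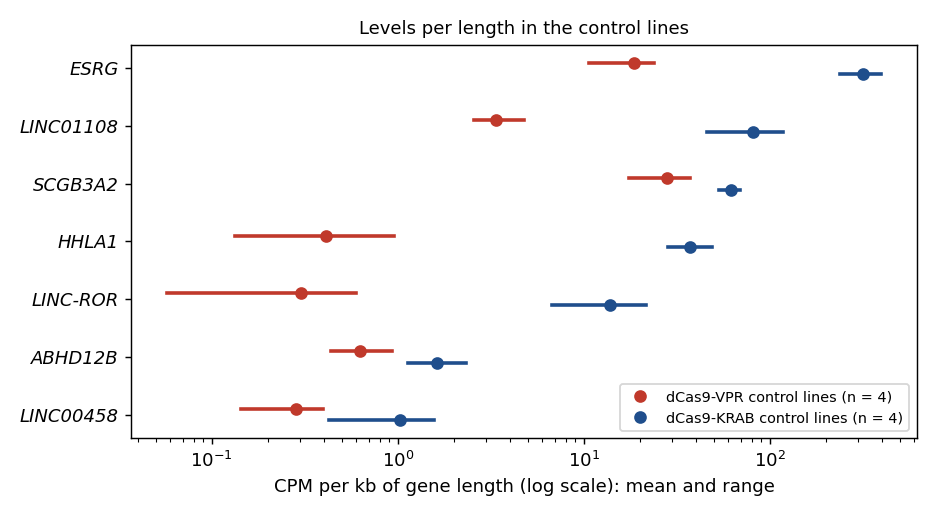
Level of each member per kb of gene length (CPM per kb, log scale) in the control lines, with the mean as a point and the range over 4 libraries as a line, in red for dCas9-VPR and blue for dCas9-KRAB. ESRG was at 317 CPM per kb with dCas9-KRAB and at 18.6 with dCas9-VPR, whereas SCGB3A2 moved less, from 62.2 to 28.2.

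For 5 of the 7 members the difference between the fusions was larger than either effect of recruitment. In control lines, without recruitment, all 7 members were lower with dCas9-VPR than with dCas9-KRAB, and the 4 libraries of the dCas9-VPR side did not overlap with the 4 of the dCas9-KRAB side for any of them. The same held, in this direction, for 24.8% of 16649 tested genes. In such bulk libraries fewer cells that express a transcript cannot be told apart from less of it per cell. Of all 16673 genes tested, 30.3% were called lower in this comparison, so a call by itself sets a member little apart. The members' median log2 fold change was -4.08, and that of all genes was -0.018. Calls here and below are adjusted p-values under 0.05, from the quasi-likelihood test of edgeR and adjusted over all genes tested by the Benjamini-Hochberg method.

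The noncoding RNAs and HHLA1 differed most. HHLA1 was at 1.61 and 0.546 CPM in dCas9-VPR LTR5HS Sa and at 3.92 and 0.683 in dCas9-VPR nontarget Sp. With dCas9-KRAB it was at 126 and 116 CPM in LTR5HS Sa and at 200.4 and 173 in nontarget Sp. The means differed 91.1-fold, with a log2 fold change of -6.55 ± 0.33 (SE) and an adjusted p of 3.34e-08 by edgeR. Without dCas9-VPR nontarget Sp replicate 1, the library at 3.92 CPM, the log2 fold change was -7.43. LINC-ROR, a noncoding RNA studied for its part in reprogramming, was at 0.149 to 1.55 CPM with dCas9-VPR and at 17.4 to 56.2 CPM with dCas9-KRAB, a log2 fold change of -5.63 ± 0.31, or -6.32 without dCas9-VPR LTR5HS Sa replicate 1. LINC01108 was at 12.5 ± 3.59 CPM with dCas9-VPR and at 301 ± 109 with dCas9-KRAB (SD, n = 4), a log2 fold change of -4.56 ± 0.24. ESRG differed 17.1-fold. It was at 75.3 and 56.7 CPM in dCas9-VPR LTR5HS Sa and at 68.0 and 33.5 in dCas9-VPR nontarget Sp, against 874 and 749 CPM in dCas9-KRAB LTR5HS Sa and 1243 and 1116 in dCas9-KRAB nontarget Sp. The remaining members differed by smaller factors, 3.63-fold for LINC00458, 2.58-fold for ABHD12B and 2.20-fold for SCGB3A2.

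**Figure D2:**
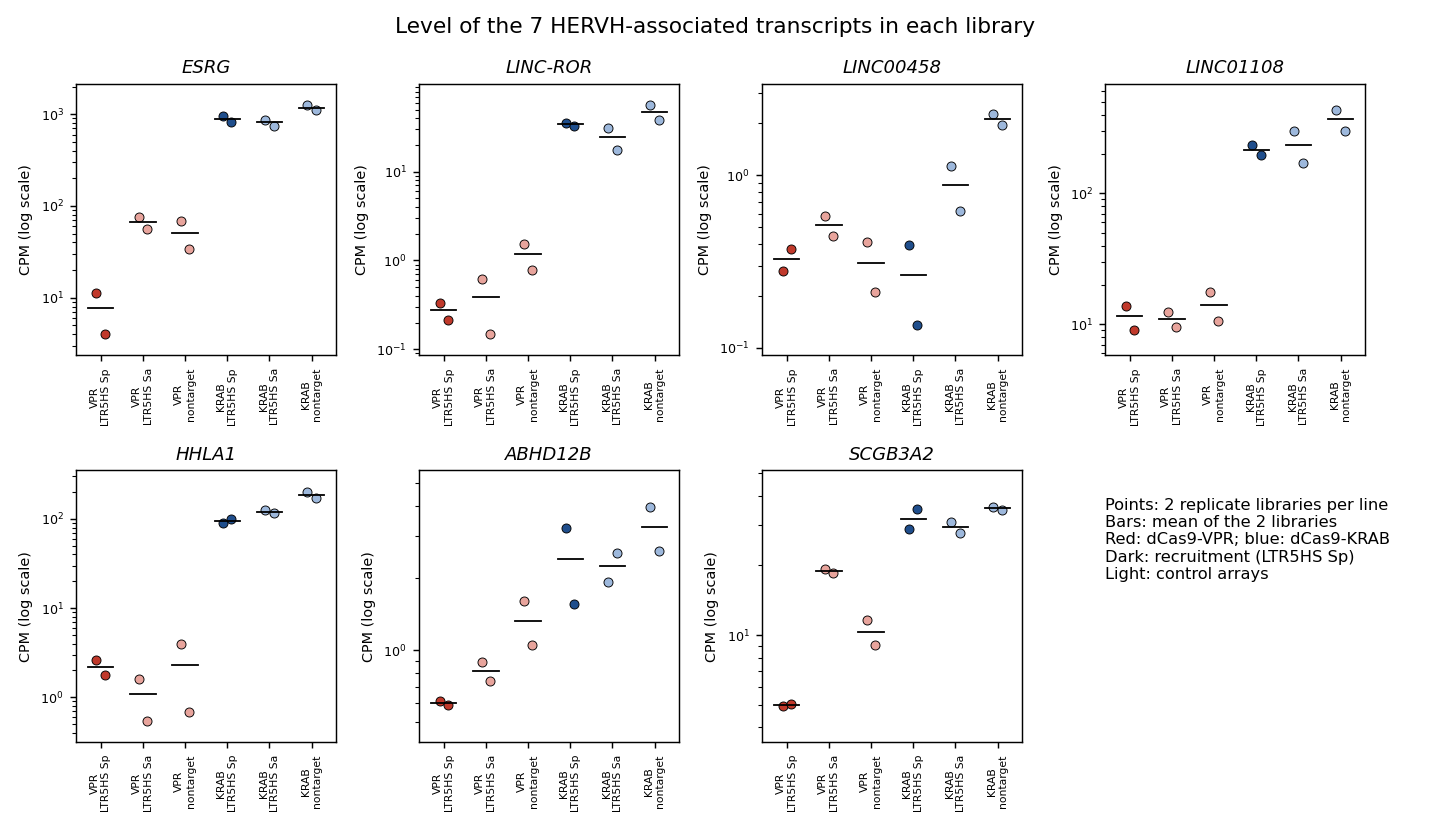
Level of each member (CPM, log scale) in the 12 libraries, grouped by line, with dCas9-VPR in red, dCas9-KRAB in blue, recruitment dark and control light; points are libraries and bars the mean of 2. For all 7 members every dCas9-VPR control library lies below every dCas9-KRAB control library, as for 24.8% of 16649 tested genes. ESRG falls further in dCas9-VPR LTR5HS Sp, to 11.4 and 4.06 CPM.

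Genes that mark pluripotent cells moved with the members between the fusions. Of 12 pluripotent markers tested, 11 were lower and 1 (SOX15) was higher in the dCas9-VPR control lines, with a median log2 fold change of -2.11. Their summed level lay between 1205 and 1833 CPM with dCas9-VPR and between 5285 and 6586 CPM with dCas9-KRAB, and none of the 12 was at 0 in either group. NANOG differed by -5.99 ± 0.31 (SE) on the log2 scale, TDGF1, a Nodal co-receptor, by -3.77 ± 0.22 and L1TD1, an RNA-binding protein of pluripotent cells, by -3.81 ± 0.21. Markers of differentiated derivatives were mixed. Of 5 endoderm markers 3 were tested and higher with dCas9-VPR, and of 4 mesoderm markers 3 were tested and higher, with HAND1 at 203 ± 66.6 CPM against 9.29 ± 5.57 (SD, n = 4). The summed endoderm markers nevertheless stayed between 4.24 and 6.89 CPM in the dCas9-VPR control libraries, against 0.388 to 1.44 with dCas9-KRAB, and SOX17, AFP and T (brachyury) had means of at most 0.156 CPM in both control groups. The summed mesoderm markers were at 153 to 286 CPM with dCas9-VPR and 8.15 to 18.8 with dCas9-KRAB. The summed neural markers were at 946 to 1628 against 533 to 772 CPM, with 1 of 4 higher, 1 lower and 2 not past the threshold. The summed trophoblast markers were at 121 to 346 against 128 to 187 CPM, with 1 of 3 tested markers higher and 2 not past the threshold. On average most of the mesoderm sum was HAND1, most of the neural sum NES and most of the trophoblast sum TFAP2A, so these sums largely follow single genes. The part of the cells' state in the members' difference was not tested.

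Factors reported to bind LTR7 or to act with HERVH RNA were followed as a list of 7. All 7 were tested between the control lines, and 4 of them were lower with dCas9-VPR, namely NANOG, KLF4 (log2 fold change -3.15 ± 0.20, SE), POU5F1 (-2.28 ± 0.34) and SOX2 (-1.25 ± 0.11). The mediator subunit MED12 (1.13 ± 0.11), the transcription factor TFCP2L1 (0.57 ± 0.10) and the acetyltransferase EP300 (0.17 ± 0.07) were higher. Their median log2 fold change was -1.25. Among 10 genes that silence endogenous retroviruses, 5 were lower with dCas9-VPR and 5 did not pass the threshold, with a median of -0.15. The scaffold protein TRIM28 differed by -0.04 ± 0.15, SETDB1, a histone H3 lysine 9 methyltransferase, by -0.23 ± 0.08 and ATF7IP, its partner, by -1.0 ± 0.09. Of HHLA2, HHLA3 and OC90, which share the HERV-H LTR name or are joined to HHLA1 by a read-through transcript, HHLA2 was not tested and the other two were lower with dCas9-VPR. OC90 differed by -5.57 ± 0.49 and HHLA3 by -0.42 ± 0.11.

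**Figure D3:**
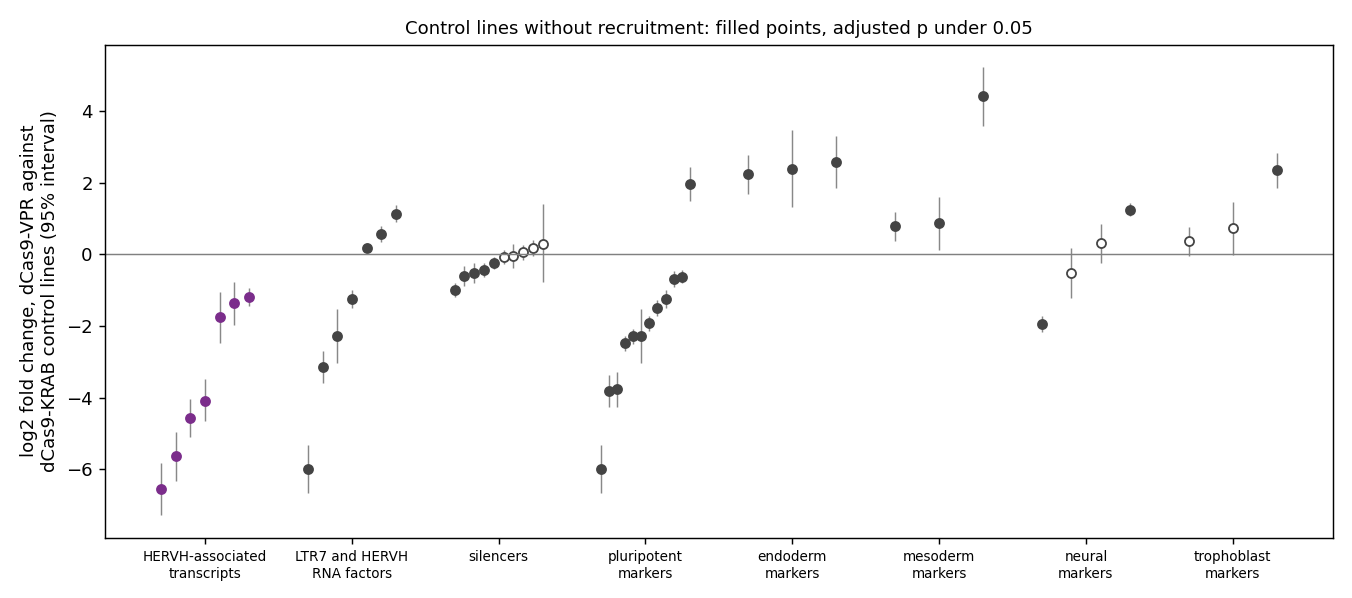
Log2 fold change between the dCas9-VPR and the dCas9-KRAB control lines (y axis, with 95% intervals as lines) for each tested gene of the member list (purple) and of 7 other lists; filled points passed an adjusted p of 0.05. All 7 members lie below 0, as do 11 of 12 pluripotent markers, whereas the tested endoderm and mesoderm markers lie above it.

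CRISPRa asked which genes respond when LTR5HS is activated. Of the members, 6 passed the filter on low counts and 2 were called, both lower. In this comparison 28.0% of 16271 genes were called, and 12.3% were called lower. LINC00458 failed the filter, with 4 to 13 counts in each dCas9-VPR library. The members tested had a median log2 fold change of -1.15, beside -0.019 for all genes, and 5 of 6 were below 0.

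ESRG showed the larger of these changes. In CRISPRa recruitment it was at 11.4 and 4.06 CPM, below all 4 control libraries (33.5 to 75.3 CPM). The means differed 7.57-fold, with a log2 fold change of -2.93 ± 0.46 (SE), a 95% interval of -3.99 to -1.86 and an adjusted p of 0.00234 by edgeR. Within replicate 1 the log2 ratio of recruitment to the mean of the control lines was -2.66, and within replicate 2 it was -3.47. ESRG remained past the threshold in all 14 alternative analyses, with log2 fold changes from -3.83 (without dCas9-VPR LTR5HS Sp replicate 1) to -2.37.

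SCGB3A2 was at 4.95 and 5.02 CPM in CRISPRa recruitment, at 19.3 and 18.6 in LTR5HS Sa and at 11.6 and 9.04 in nontarget Sp. Both recruitment libraries lay below every control library, and the control lines themselves stood apart. The log2 fold change was -1.55 ± 0.34 (SE), with a 95% interval of -2.34 to -0.77 and an adjusted p of 0.0111 by edgeR. Leaving out either recruitment library ended the call, with adjusted p-values of 0.0827 and 0.0790 by edgeR, at log2 fold changes of -1.53 and -1.57. The 250 bases upstream of the SCGB3A2 start of RefSeq, which lies 8.0 kb downstream of its GENCODE start and within the GENCODE gene, are shown because this member and ESRG are the ones that fell. They are taken from RefSeq on GRCh38.p14, plus strand, as the first 250 bases of the window chr5:147878461-147878760, and no letters are capitalised.
SCGB3A2: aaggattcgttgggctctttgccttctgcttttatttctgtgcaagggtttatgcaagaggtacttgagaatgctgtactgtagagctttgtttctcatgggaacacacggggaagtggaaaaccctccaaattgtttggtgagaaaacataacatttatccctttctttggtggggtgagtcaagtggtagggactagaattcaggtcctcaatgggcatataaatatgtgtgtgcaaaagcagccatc

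The other members tested in CRISPRa did not pass the threshold. LINC-ROR was at 0.334 and 0.214 CPM in recruitment (6 and 4 counts) and at 0.149 to 1.55 CPM in control, and its log2 fold change of -1.47 ± 0.82 (SE) had a 95% interval of -3.36 to 0.41. With nontarget Sp alone as control it passed, at -2.07 with an adjusted p of 0.0168 by edgeR. With LTR5HS Sa alone as control it was not tested, and recruitment lay within the LTR5HS Sa range of 0.149 to 0.624 CPM. ABHD12B was at 0.612 and 0.588 CPM in recruitment, below all 4 control libraries (0.745 to 1.60 CPM), with a log2 fold change of -0.82 ± 0.40 and an adjusted p of 0.169 by edgeR. LINC01108 was at 13.9 and 9.14 CPM in recruitment and at 9.48 to 17.6 in control, so that the groups overlapped, and its interval reached from -0.75 to 0.51. HHLA1 was at 2.62 and 1.76 CPM against 0.546 to 3.92 in control, with an interval of -1.21 to 1.97. In the filtered-out LINC00458, recruitment at 0.278 and 0.374 CPM lay within the control range of 0.210 to 0.580 CPM.

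**Figure D4:**
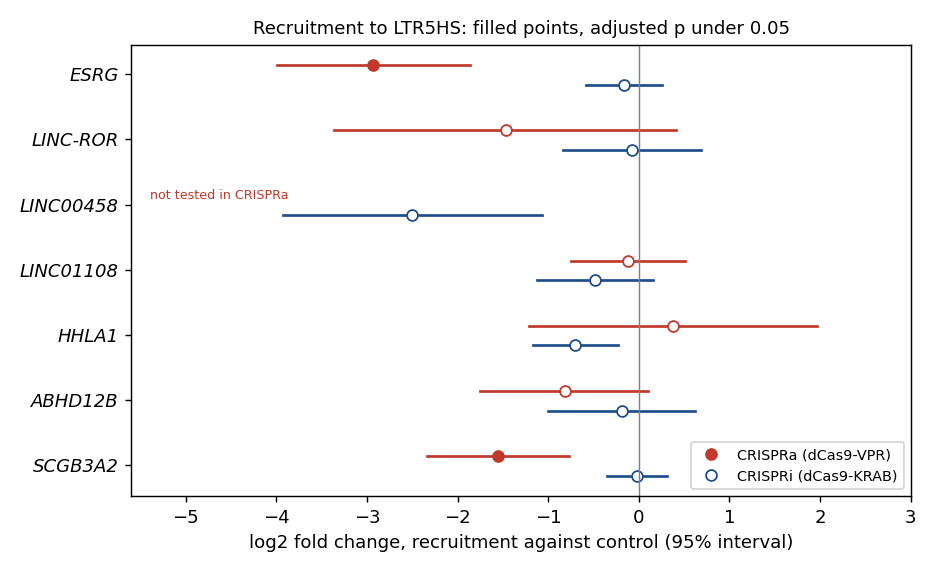
Log2 fold change of each member between recruitment and control (x axis, 95% interval as a line) in CRISPRa (red) and CRISPRi (blue); filled points passed an adjusted p of 0.05. ESRG at -2.93 and SCGB3A2 at -1.55 are the filled points, both in CRISPRa, and LINC00458 at -2.50 is the lowest in CRISPRi.

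Among the LTR7 and HERVH RNA factors, SOX2 fell (log2 fold change -1.24 ± 0.25, SE) and TFCP2L1 rose (2.41 ± 0.26) in CRISPRa recruitment, and the other 5 of 7 did not pass the threshold. NANOG was at 3.23 ± 0.556 CPM in recruitment (SD, n = 2) and 2.39 ± 1.85 in control (n = 4), and POU5F1 at 19.1 ± 13.1 and 14.2 ± 1.19 CPM. Of the 10 silencers, MPHOSPH8, a HUSH complex subunit, rose by 1.38 ± 0.09 on the log2 scale and 9 did not pass. Of the pluripotent markers, L1TD1 rose (1.62 ± 0.26), SOX2, DNMT3B (-0.62 ± 0.14) and TERF1 (-0.41 ± 0.13) fell and 8 did not pass, and the summed level in recruitment (1309 and 1362 CPM) lay within the control range. HHLA3 and OC90 did not pass and HHLA2 was not tested. GATA6 among 3 tested endoderm markers rose (1.29 ± 0.22), and so did CDX2 (3.72 ± 0.39) and GATA3 (1.48 ± 0.29) among 3 tested trophoblast markers. OTX2 among 4 neural markers fell (-1.12 ± 0.27), and none of 3 tested mesoderm markers passed the threshold. The summed endoderm markers were at 10.1 and 10.9 CPM in CRISPRa recruitment, above the control range, and the summed trophoblast markers at 142 and 148 CPM within it. The trophoblast sum was mostly TFAP2A, at 107 ± 2.50 CPM in recruitment (SD, n = 2) and 210 ± 95.8 in control (n = 4), which did not pass. CDX2 was at 11.4 ± 0.944 against 0.860 ± 0.535 CPM and GATA3 at 26.5 ± 6.43 against 9.48 ± 3.14. The summed neural markers were at 1519 and 1627 CPM and the summed mesoderm markers at 185 and 228 CPM, both within the control ranges. The part of these genes in the members' changes was not tested.

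The genes next to the members on the chromosome were examined for both fusions. ESRG lies at chr3:54632122-54639857 (hg38, minus strand, a noncoding RNA), entirely within CACNA2D3, a calcium channel subunit gene on the plus strand at chr3:54122552-55074557, and shares 0 exonic bases with it in GENCODE 44. CACNA2D3 rose where ESRG fell. It was at 45.6 and 45.1 CPM in CRISPRa recruitment and at 1.52 to 2.43 CPM in the 4 control libraries, a 22.8-fold difference of the means with a log2 fold change of 4.50 ± 0.21 (SE) and an adjusted p of 5.45e-06 by edgeR. In CRISPRi CACNA2D3 was at 3.75 and 4.06 CPM in recruitment and 4.04 to 5.49 in control, with a log2 fold change of -0.33 ± 0.22 that did not pass. A cluster of exact matches to 5 different guides lay 144.4 kb upstream of the CACNA2D3 start and 662.0 kb from the ESRG start. Whether the host gene's change has a part in that of ESRG was not tested. The strand setting of the counting is not given in the sources used here, so reads from the introns of the host and from ESRG cannot be told apart by strand.

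SPINK1, a trypsin inhibitor gene, starts 39.0 kb from SCGB3A2 and fell as well in CRISPRa. It was at 0.668 and 0.481 CPM in recruitment (12 and 9 counts) and at 1.10 to 4.91 CPM in control, a 4.62-fold difference with a log2 fold change of -2.21 ± 0.62 (SE) and an adjusted p of 0.0313 by edgeR. In CRISPRi neither SPINK1 (0.26 ± 0.19) nor SCGB3A2 passed. CD83, 168.2 kb from LINC01108, fell in CRISPRa by 0.72 on the log2 scale, from 18.9 ± 2.66 to 11.5 ± 0.987 CPM. LINC-ROR is at chr18:57054558-57072119 (minus strand), LINC01108 at chr6:14280127-14285454 (minus), SCGB3A2 at chr5:147870682-147882191 (plus) and HHLA1 at chr8:132061480-132111159 (minus). ABHD12B, at chr14:50872053-50904970 on the plus strand, lies within PYGL, a glycogen phosphorylase gene of the opposite strand, and shares 0 exonic bases with it. PYGL did not pass in CRISPRa (-0.24 ± 0.15) or CRISPRi (0.11 ± 0.12). Altogether 8 of 14 neighbouring genes were tested in CRISPRa, of which 1 rose and 2 fell, and 9 were tested in CRISPRi, of which 1 rose.

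**Figure D5:**
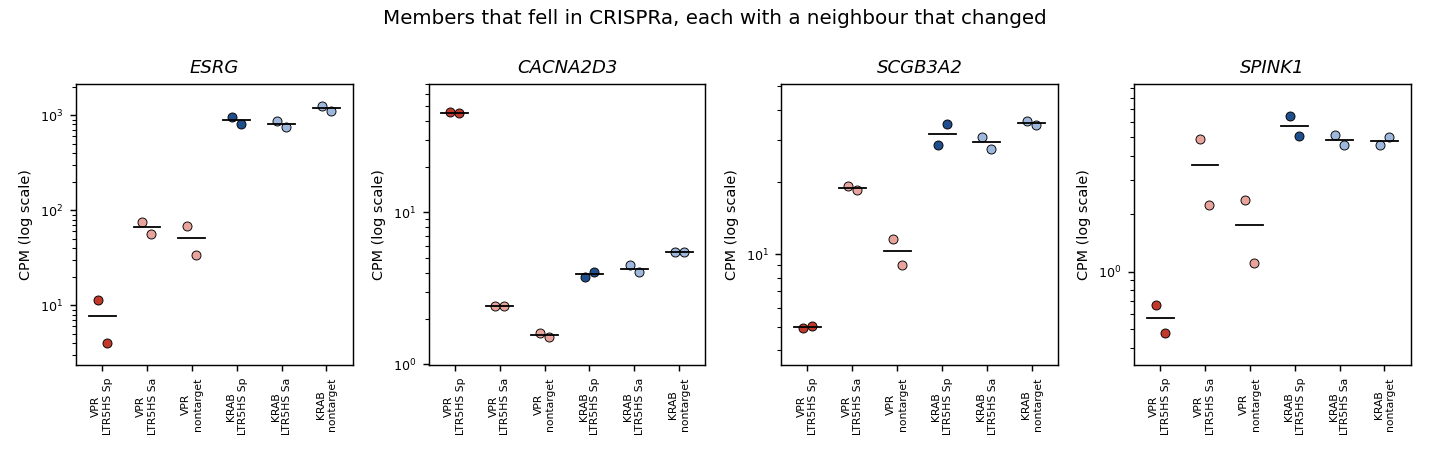
Level (CPM, log scale) in the 12 libraries of ESRG and its host gene CACNA2D3, and of SCGB3A2 and its neighbour SPINK1; points are libraries, bars the mean of 2, red dCas9-VPR, blue dCas9-KRAB, dark recruitment. In dCas9-VPR LTR5HS Sp, CACNA2D3 is at 45.6 and 45.1 CPM while ESRG, SCGB3A2 and SPINK1 are at their lowest.

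In CRISPRi, 0 of the 7 members were called by edgeR, in a comparison in which 2.77% of 15520 genes were. At an unadjusted p under 0.05 by edgeR there were 2, LINC00458 and HHLA1, beside 13.6% of all genes tested. DESeq2 called the same 2 members, and 3.96% of the 17590 genes it tested. All 7 log2 fold changes were below 0, with a median of -0.193 beside 0.001 for all genes.

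LINC00458 was at 0.392 and 0.135 CPM in CRISPRi recruitment (7 and 2 counts), below all 4 control libraries. It was at 1.14 and 0.621 CPM in LTR5HS Sa (20 and 8 counts) and at 2.27 and 1.96 in nontarget Sp (55 and 129 counts). The log2 fold change was -2.50 ± 0.64 (SE), with a 95% interval of -3.93 to -1.07 and an adjusted p of 0.0866 by edgeR. It passed the threshold without a filter on low counts (0.0312), with all 12 libraries in 1 fit (0.0449), with nontarget Sp alone as control (0.00846) and without dCas9-KRAB LTR5HS Sa replicate 2 (0.0228), all by edgeR. With the replicate block it did not pass (0.0808 by edgeR), and with LTR5HS Sa alone as control it was not tested. Without dCas9-KRAB LTR5HS Sp replicate 1 it was at -3.49 with an adjusted p of 0.192, and without replicate 2 of that line at -1.99 with an adjusted p of 0.450, by edgeR. The counts of 2 to 8 in 3 of the 6 libraries limit what can be said of its size. LINC00458 was also the one member with a group of guide matches inside its annotated body (chr13:53950255-54270397, hg38, minus strand), about 3 kb downstream of the GENCODE start, when 1 mismatch was allowed. The RefSeq start lies 134.4 kb away from the group. The 4 loci of this group are printed as guide-matching letters in lower case with the PAM, and any base that differs from the guide, in capitals. They are shown because 2 of them are exact and because no other member has such a group.
LTR5HS-2 locus, chr13:54267176-54267194, minus strand, exact: aaaaccgccttagggcTGG
LTR5HS-9 locus, chr13:54267239-54267257, plus strand, exact: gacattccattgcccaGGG
LTR5HS-8 locus, chr13:54267329-54267347, minus strand, G5T: taaaTggtctgtgctgAGG
LTR5HS-7 locus, chr13:54267422-54267440, plus strand, A2G: aGccttggacaataccTGG
In G5T and A2G the guide's base stands first, the position is counted from 1 at the 5′ end of the guide and the base of the locus stands last. Guide LTR5HS-3 also matched the first locus with 1 mismatch (T6C). A cluster within 3.1 kb of the start was found for 0.278% of 23045 genes at this setting. The study ran ChIP-seq of dCas9 in the recruitment lines of both fusions. Those data were not analysed here, so whether the fusion bound there was not tested here.

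HHLA1 was at 90.5 and 99.1 CPM in CRISPRi recruitment, below LTR5HS Sa (126 and 116 CPM) and nontarget Sp (200.4 and 173 CPM). The log2 fold change was -0.70 ± 0.21 (SE), with a 95% interval of -1.17 to -0.23 and an adjusted p of 0.148 by edgeR, and it passed with nontarget Sp alone as control, at -0.98 with an adjusted p of 0.00375 by edgeR. With LTR5HS Sa alone as control it was -0.35 with an adjusted p of 0.370, and with all 12 libraries in 1 fit the adjusted p was 0.481, by edgeR. The control lines themselves differed by -0.63 ± 0.33 (LTR5HS Sa against nontarget Sp), which did not pass. OC90, which is joined to HHLA1 by a read-through transcript of the same strand with 390 shared exonic bases of HHLA1, did not pass (0.42 ± 0.27), and counts of these genes are uncertain because the counting could split their reads. KCNQ3, a potassium channel gene whose start is 369.9 kb from that of HHLA1, rose in CRISPRi from 0.575 ± 0.236 to 4.04 ± 0.323 CPM, with a log2 fold change of 2.67 ± 0.33.

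The remaining 5 members did not pass the threshold in CRISPRi. ESRG was at 961 and 819 CPM in recruitment and at 749 to 1243 in control, with a 95% interval of the log2 fold change of -0.58 to 0.26. For SCGB3A2 the interval was -0.35 to 0.31, for LINC01108 -1.12 to 0.16, for LINC-ROR -0.84 to 0.69 and for ABHD12B -1.0 to 0.62. None of the tested LTR7 factors, silencers, pluripotent, endoderm, mesoderm or neural markers passed in CRISPRi, nor did HHLA3 and OC90. GATA3 (1.47 ± 0.29) and TFAP2A (1.07 ± 0.15) among 3 tested trophoblast markers rose, and the summed trophoblast markers were at 311 and 351 CPM in recruitment, above the control range of 128 to 187 CPM. The summed pluripotent markers were at 5025 and 5290 CPM in recruitment and at 5285 to 6586 in control. The summed endoderm markers were at 0.948 and 1.51 CPM, the mesoderm markers at 12.9 and 25.7 and the neural markers at 567 and 571, each overlapping with its control range. CGA, a trophoblast marker, had 0 counts in the recruitment libraries of both fusions. In control libraries it reached at most 0.0446 CPM (dCas9-VPR) and 0.0569 CPM (dCas9-KRAB), so it was near 0 in all groups. The part of these genes in the members' values was not tested.

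The effect of recruitment differed between the fusions for 2 of the 7 members, with 21.0% of 16673 genes called in the test of this difference. For ESRG the CRISPRa effect was lower than the CRISPRi effect by -2.76 ± 0.50 on the log2 scale (SE, adjusted p 0.00162 by edgeR), and for SCGB3A2 by -1.53 ± 0.37 (0.0106). In none of the 18 alternatives did either lose its call, and the value of ESRG reached -3.68 without dCas9-VPR LTR5HS Sp replicate 1. LINC00458, at 2.15 ± 0.91 in the opposite direction, did not pass (adjusted p 0.116 by edgeR), nor did the other 4. Without dCas9-VPR nontarget Sp replicate 1, HHLA1 passed as well, at 1.87 with an adjusted p of 0.0216 by edgeR, against 1.08 and 0.317 with it.

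The control lines show how much these transcripts vary between lines in which no fusion was recruited to LTR5HS by its array. With dCas9-VPR, LTR5HS Sa and nontarget Sp differed for 1 member, SCGB3A2, with 5.24% of 16673 genes called. It was higher in LTR5HS Sa, by 0.87 ± 0.16 on the log2 scale (adjusted p 0.00891 by edgeR). The call was lost without either LTR5HS Sa library (adjusted p 0.0720 and 0.0614 by edgeR) and without nontarget Sp replicate 2 (0.0783). In that last case HHLA1 was called instead, at -1.83 with an adjusted p of 0.0361 by edgeR, against -1.07 and 0.373 with all libraries. LINC-ROR differed by -1.55 ± 0.62 (adjusted p 0.198 by edgeR), and passed with the replicate block (0.0315) and with DESeq2 (0.0402). With dCas9-KRAB, edgeR and DESeq2 both called 0 members, with 0.612% of genes called by edgeR, and 3 members (LINC01108, LINC00458 and LINC-ROR) had an unadjusted p under 0.05 by edgeR, beside 10.5% of all genes tested. With the replicate block as a term, these 3 were called by edgeR, with adjusted p-values of 0.00684 (LINC01108), 0.0457 (LINC00458) and 0.00923 (LINC-ROR), where 785 genes were called in place of 102. All 7 were lower in LTR5HS Sa than in nontarget Sp, from -0.27 ± 0.15 for SCGB3A2 to -1.21 ± 0.38 for LINC00458. Their median log2 fold change was -0.63, beside -0.002 for all genes. The control-line difference of SCGB3A2 was itself larger with dCas9-VPR than with dCas9-KRAB, by 1.14 ± 0.22 on the log2 scale (adjusted p 0.0223 by edgeR), in a test added after the data had been seen.

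The members varied together to different degrees. Among the 21 pairs of members, Pearson's r of log2(CPM + 0.5) over the 6 dCas9-VPR libraries ran from -0.35 (HHLA1 and SCGB3A2) to 0.94 (LINC-ROR and ABHD12B), with a median of 0.41. Over the 6 dCas9-KRAB libraries it ran from -0.04 (ABHD12B and SCGB3A2) to 0.94 (LINC00458 and HHLA1), with a median of 0.62. ESRG and SCGB3A2, the members that fell in CRISPRa, had an r of 0.90 with dCas9-VPR and 0.62 with dCas9-KRAB. The dCas9-VPR value includes the 2 recruitment libraries in which this pair fell, so it adds nothing to those changes. These values describe libraries that share lines and replicate numbers, and 6 points are few.

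The genes most like each member were ranked over all 12 libraries, which span both fusions and so include the difference between them. Among 14535 genes with a mean of at least 1 CPM, NANOG was most like HHLA1 (r = 0.999, and 0.99 and 0.92 within dCas9-VPR and dCas9-KRAB), followed by LINC00428 and JAKMIP2-AS1. For LINC-ROR the genes were PLPP5, NFE2L3 and TDGF1 (r from 0.992 to 0.993), and for LINC01108 the leading pair was LINC-ROR itself and RPL39L (0.992 each). For ESRG they were PTPRG, PREX2 and FIP1L1 (0.993 to 0.996). For ABHD12B they were MRPL42, TAF1D and PDS5A (0.983 to 0.987), and for SCGB3A2 ATP6V0A2, EPB41L5 and CDHR1 (0.987 to 0.992). EPB41L5 kept an r of 0.99 to SCGB3A2 within dCas9-VPR but had one of -0.14 within dCas9-KRAB. LINC00458 was below the level required.

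The members were placed against clusters of guide matches and against single matches. The 12 guides, each 16 nt, had 2938 exact matches followed by NGG in hg38, which formed 523 clusters of at least 3 guides within 1000 bp, and 9.82% of 23045 genes started within 200 kb of a cluster. No member did. The nearest cluster was 662.0 kb from the start of ESRG, a distance that 25.6% of genes did not exceed. It was 2583.5 kb from SCGB3A2, 3941.7 kb from LINC01108, 4153.1 kb from ABHD12B, 4670.8 kb from LINC00458, 5303.6 kb from HHLA1 and 10005.2 kb from LINC-ROR. With 1 mismatch allowed, LINC00458 moved to 3.1 kb as described, LINC-ROR to 6667.6 kb and SCGB3A2 to 2072.3 kb. Single exact matches were nearer for LINC00458, at 3.2 kb from its GENCODE start with 2 inside its GENCODE gene body, the exact loci printed above. For the other members the nearest single exact match was at least 661.7 kb away, and 0 lay in their gene bodies. A match is a description of letters, not of binding.

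Start windows of 300 bases, 250 before and 50 after the RefSeq start, were at hand for LINC01108, ABHD12B and SCGB3A2. The octamer ATGCAAAT, a motif of the POU family, was searched on both strands and found in 0 of the 3 windows, against 1.77% of 35116 windows. At this share 0 of 3 says little, and whether these starts lie in LTR7 was not examined. The longest identical run between any pair of the windows was 9 bases. Their GC content was 36.7%, 54.3% and 43.3%, in that order, and the median over all windows was 58.7%. The LINC01108 window is shown as that of a member with one of the largest differences between the fusions, and can be set beside the SCGB3A2 sequence above. It is chr6:14285405-14285704 on the minus strand of GRCh38.p14, with the 50 transcribed bases after the start in capitals.
LINC01108: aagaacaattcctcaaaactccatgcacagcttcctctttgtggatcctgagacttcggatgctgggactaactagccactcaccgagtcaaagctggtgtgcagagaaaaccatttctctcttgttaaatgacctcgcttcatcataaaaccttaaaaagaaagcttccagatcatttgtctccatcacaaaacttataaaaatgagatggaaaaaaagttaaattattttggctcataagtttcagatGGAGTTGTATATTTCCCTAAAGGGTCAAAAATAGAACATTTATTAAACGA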

How the data were processed

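Polyadenylated RNA of the 6 lines was sequenced in 2 replicates. The authors trimmed reads, aligned them to hg38 and assigned them to genes, and per the submitters' processing notes CASAVA 1.8, cutadapt 1.8.1, HISAT2 2.1.0 and featureCounts 1.4.6-p2 were used. The authors deposited unnormalised counts, 1 per gene and library, beside a gene length in bp, which was used here for levels per kb. The annotation and the strand setting are not given in the sources used here.

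Tests ran in R 4.3.3 on the whole table with edgeR 4.0.16 (filterByExpr, TMM, quasi-likelihood F-test, Benjamini-Hochberg, threshold 0.05). Recruitment was compared with control within each fusion. The interaction used 4 groups of all 12 libraries, and control lines were compared in a fit with 6 groups. Library totals are given with the levels. Standard errors were taken as the absolute log2 fold change over the square root of F. The pipeline was tested on simulated data. Of the 26641 genes, 28 carry names that read as dates and were kept in the tests only.

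The members and the gene lists were chosen with earlier results of these data known. Named genes are all members, the 3 genes most like each member of at least 1 CPM on average, the nearest gene on either side, and list members that passed. Of the genes most like a member, 1 is not reported here. Replicate differences of the 3 lines of a fusion correlated with r from 0.289 to 0.400 (dCas9-VPR) and 0.195 to 0.467 (dCas9-KRAB). Replicate numbers were therefore taken to pair the libraries within a fusion, from the data and not from the labels. Between lines of different fusions r ran from 0.0542 to 0.441, so these values do not set pairing within a fusion apart. The main tests held no replicate term, and the pairing entered only as the replicate block. Replicate 1 was above replicate 2 in 6 of 6 lines for ESRG, LINC-ROR and LINC01108, and in 4 or 5 of 6 for the other members. Alternatives were DESeq2 1.42.0, its size factors in edgeR, the replicate block, no filter on low counts, a minimum of 10 counts for each library, each control array alone, all 12 libraries in 1 fit, 6 groups for the interaction, leaving out each library, CPM on library totals and 1 mismatch for guides. The test of the control-line difference between the fusions was added after the data had been seen. Positions are from GENCODE 44 and start windows from RefSeq (GRCh38.p14), of which 3 of 7 members matched. Guide sequences came from the study's list of array guides. Repeat counts and ChIP-seq were not analysed here.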

Additional observations from a re-analysis of the deposited data

Results flagged for a closer look

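These 3 results were picked out because the same contrast differed between the fusions in a test of the difference itself. Recruitment had a lower effect on ESRG with dCas9-VPR than with dCas9-KRAB, by -2.76 on the log2 scale (95% interval -3.85 to -1.68, adjusted p 0.00162 by edgeR's quasi-likelihood test), and both CRISPRa libraries were below all 4 controls. The same held for SCGB3A2, by -1.53 (95% interval -2.33 to -0.72, adjusted p 0.0106 by edgeR). The difference between LTR5HS Sa and nontarget Sp was larger for SCGB3A2 with dCas9-VPR than with dCas9-KRAB, by 1.14 (95% interval 0.65 to 1.63, adjusted p 0.0223 by edgeR), in a test chosen after seeing the data. A check of 14 groups of 4 control libraries flagged none, but 4 values give such a check little power. For HHLA1, dCas9-VPR nontarget Sp replicate 1 was at 3.92 CPM and the other 3 dCas9-VPR control libraries at 0.546 to 1.61 CPM.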

How the results depend on the processing

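The count of 7 members lower in the dCas9-VPR control lines fell to 5 only where at least 10 counts were required in every library, which removed the others from the test, and no log2 fold change in this comparison changed sign or lost its call. The 2 calls in CRISPRa became 1 (ESRG) without either recruitment library, and ranged from 1 to 2 when any library was left out. With nontarget Sp alone as control, 3 members were called (LINC-ROR as well), where 4764 of all genes were called in place of 4548.

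The 0 calls in CRISPRi became 2 with DESeq2 or with nontarget Sp alone as control, and 1 without a filter or with all 12 libraries in 1 fit. Over all genes 696, 629, 514 and 468 were called in these settings, in that order, in place of 430. Leaving out a library gave 0 to 1, with LINC00458 called without dCas9-KRAB LTR5HS Sa replicate 2. Between the dCas9-VPR control lines the 1 call became 2 with DESeq2 and 2 with the replicate block (LINC-ROR and SCGB3A2 in both), and was 0 to 1 when a library was left out, with HHLA1 as the 1 call without dCas9-VPR nontarget Sp replicate 2. Between the dCas9-KRAB control lines the 0 calls became 1 (LINC-ROR) without a filter and 3 with the replicate block (LINC01108, LINC-ROR and LINC00458). In the interaction the 2 calls became 3, with HHLA1, without dCas9-VPR nontarget Sp replicate 1. Over all 12 libraries the replicate numbers were not shared by every pair of lines (lowest r 0.0542). In CRISPRa and CRISPRi the block, as a pairing of replicates, left the calls at 2 and 0, and it changed no other call. The cause of these shifts was not tested.

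Sign changes occurred only in log2 fold changes that had not been called. With LTR5HS Sa alone as control, LINC01108 in CRISPRa became 0.06, and in CRISPRi ESRG became 0.13, LINC-ROR 0.48, ABHD12B 0.13 and SCGB3A2 0.12. With nontarget Sp alone HHLA1 in CRISPRa became -0.07. When single libraries were left out, LINC01108 in CRISPRa ranged from -0.44 to 0.14, and in CRISPRi LINC-ROR from -0.30 to 0.21, ABHD12B from -0.84 to 0.22 and SCGB3A2 from -0.18 to 0.11. Between the dCas9-VPR control lines ESRG ranged from -0.04 to 0.98, LINC01108 from -0.68 to 0.05 and HHLA1 from -2.07 to 0.68. Of 653 alternative log2 fold changes, 615 kept their direction and their side of the threshold.

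Counts over all genes moved by more than 1.5 times in some settings. In CRISPRa they were 4548, and 2312 and 2299 without LTR5HS Sp replicate 1 and replicate 2. In CRISPRi 430 genes were called, 696 by DESeq2 and 234, 214 and 285 without LTR5HS Sp replicate 1, LTR5HS Sp replicate 2 and nontarget Sp replicate 2. Between the dCas9-VPR control lines 874 were called, 2269 with the block and 234 to 384 without 3 of their 4 libraries in turn. Between the dCas9-KRAB control lines 102 were called, 194 by DESeq2, 263 without a filter, 30 with at least 10 counts, 785 with the block and 37 to 52 without each of their 4 libraries.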
